A study of Mus musculus with 2 samples.

Results

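Gene deserts are long stretches of a chromosome with no protein-coding gene. The regions described here are the places in them that were listed by CUT&Tag for the phosphatase PHLPP1 in mouse alveolar macrophages. A region, 1 entry of a deposited peak list, was taken when it lay on an autosome more than 100 kb from the body of every protein-coding gene (RefSeq genes on GRCm38.p6, the assembly behind mm10). This gave 32987 of 165089 autosomal regions in the untreated list (20.0%, exact 95% interval 19.8 to 20.2) and 31697 of 225427 in the IL-4 list (14.1%, 13.9 to 14.2). The lists were kept apart, and a region that overlapped the other list by at least 1 bp is called shared, any other alone. All of these intervals cover counting error only.

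Both groups were primary alveolar macrophages of wild-type (WT) mice, the resident macrophages of the airspaces, collected by bronchoalveolar lavage. The 2 groups held 1 library each, one untreated (UT) and one stimulated over 4 h with interleukin-4 (IL-4), 20 ng/ml. Fragments were released by a transposase tethered to an antibody against PHLPP1 (ProteinTech). The labels name no replicates, the age and sex of the mice are not given in the sources used here, and no control-antibody library was analysed here, so the values compare these 2 libraries and carry no test between the conditions.

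PHLPP1 is known as the phosphatase that removes phosphate from AKT and other kinases. Gene deserts are known to hold distant enhancers, which can act on a promoter far away along the chromosome, and many long noncoding RNA (lncRNA) genes. Deserts beside regulators of development are often rich in conserved enhancers, while those beside neural adhesion genes are often very long. IL-4 drives alternative activation of macrophages through the transcription factor STAT6.

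The promoters of 4 desert lncRNAs show what the sequences looked like. They were chosen after their values were seen, for a high fold or a known gene, and run from 250 bases before to 50 after the transcription start (RefSeq, GRCm38.p6). Gm26901 (chr1:7398047-7398346, minus strand) and Gm12708 (chr4:95193054-95193353, plus strand, 141 kb from the AP-1 gene Jun) were overlapped in both lists. The promoters of Mir100hg (chr9:41474643-41474942, plus strand), the host gene of a microRNA cluster, and Morrbid (chr2:128429302-128429601, minus strand), an lncRNA known to control the life span of myeloid cells, were overlapped in the IL-4 list alone. Capitals mark matches on either strand to 5 motifs, in which N is any base. The ETS core bound by PU.1 was searched as GAGGAA. The AP-1 motif was searched as TGANTCA, the C/EBP motif as TTGCNNAA and the TATA box as TATAAA, and the STAT6 motif by its usual inverted repeat with a spacer of 4 bases.
Gm26901: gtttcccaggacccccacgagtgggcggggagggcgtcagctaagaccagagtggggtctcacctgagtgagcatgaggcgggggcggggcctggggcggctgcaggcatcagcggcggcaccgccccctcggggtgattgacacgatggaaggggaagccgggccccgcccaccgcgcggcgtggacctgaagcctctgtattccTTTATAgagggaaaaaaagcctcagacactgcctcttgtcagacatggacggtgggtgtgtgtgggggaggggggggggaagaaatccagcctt
Gm12708: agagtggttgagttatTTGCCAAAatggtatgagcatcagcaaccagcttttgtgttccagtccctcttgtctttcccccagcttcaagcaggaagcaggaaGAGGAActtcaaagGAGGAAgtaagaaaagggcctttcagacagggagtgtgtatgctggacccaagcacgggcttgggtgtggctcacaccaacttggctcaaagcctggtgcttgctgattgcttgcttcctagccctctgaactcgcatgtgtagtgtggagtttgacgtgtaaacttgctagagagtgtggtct
Mir100hg: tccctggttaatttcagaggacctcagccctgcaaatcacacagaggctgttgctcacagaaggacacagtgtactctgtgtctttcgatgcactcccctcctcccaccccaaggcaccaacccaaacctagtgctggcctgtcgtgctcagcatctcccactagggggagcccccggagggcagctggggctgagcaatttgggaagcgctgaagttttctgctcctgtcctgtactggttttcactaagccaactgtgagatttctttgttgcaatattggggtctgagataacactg
Morrbid: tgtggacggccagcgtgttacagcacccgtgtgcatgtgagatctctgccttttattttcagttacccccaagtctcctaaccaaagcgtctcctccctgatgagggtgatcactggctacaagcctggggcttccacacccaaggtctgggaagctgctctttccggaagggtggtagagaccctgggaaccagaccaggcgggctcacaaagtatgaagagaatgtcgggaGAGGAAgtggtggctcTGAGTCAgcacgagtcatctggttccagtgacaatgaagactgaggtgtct

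At the Gm26901 promoter the region had a fold of 4.47 without and 6.17 with IL-4, where fold is the authors' ratio of the summit pileup to the background of the same library. At Gm12708 the folds were 2.82 and 5.91. The IL-4 region over the Mir100hg promoter had a fold of 4.27 and covered the whole window, and the one over Morrbid had a fold of 2.98. The Morrbid window held a GAGGAA match and a TGANTCA match, and the Mir100hg window held no match to any of the 5 motifs.

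Desert lncRNA promoters were overlapped less often than other promoters, and more often in the IL-4 list. Of 2014 desert windows from 1701 lncRNA genes, 155 (7.70%, 6.57 to 8.95) met a region of the untreated list and 215 (10.7%, 9.36 to 12.1) one of the IL-4 list. The untreated and IL-4 shares were 17.1% and 24.7% for lncRNA promoters within 100 kb of a protein-coding gene, and 44.4% and 54.4% for protein-coding promoters. Both lists met 92 desert windows, the untreated list alone 63 and the IL-4 list alone 123. The median GC content was 51.3% in windows met by both lists, 50.3% in those met by the IL-4 list alone, 48.3% in those met by the untreated list alone and 44.0% in those met by neither. GAGGAA stood in 27.8% of desert windows and 28.2% of all promoters, TGANTCA in 10.4% and 7.84%, TTGCNNAA in 15.2% and 10.9%, the STAT6 motif in 8.04% and 6.98%, and TATAAA in 20.1% and 13.6%. In the windows met by both lists the shares, in the same order, were 30.4%, 11.96%, 10.9%, 11.96% and 10.9%, and with 92 windows the interval for GAGGAA ran from 21.3% to 40.9%. For TATAAA the interval ran from 5.34% to 19.1%, beside 21.1% (19.2 to 23.1) in windows met by neither list and 22.2% (12.7 to 34.5) in the 63 met by the untreated list alone, and no difference between these sets was tested.

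Across all deserts the full IL-4 list held slightly fewer regions than the full untreated list, and elsewhere it held many more. The ratio of IL-4 to untreated regions was 0.961 (0.946 to 0.976) in deserts and 1.47 (1.46 to 1.48) over all other autosomal regions, of which there were 132102 and 193730. The desert ratio lies on the other side of 1 among regions with a fold of at least 3, with 1473 untreated and 1889 IL-4 regions, a ratio of 1.28 (1.20 to 1.37). Over all autosomal regions 9.08% of the untreated and 12.9% of the IL-4 list reached that fold, against 4.47% and 5.96% of desert regions. Outside deserts the ratio at that fold was 2.01 (1.97 to 2.05). At −log10 q of at least 2 deserts held 21919 untreated and 26342 IL-4 regions, a ratio of 1.20. At −log10 q of at least 5 they held 3721 and 6971, a ratio of 1.87 (1.8001 to 1.95), against 2.499 outside deserts. That stricter limit was reached by 11.3% of untreated and 21.99% of IL-4 desert regions. The ratio in deserts was thus the lower one wherever both are given here, while whether it fell below 1 depended on the limit. The untreated excess over all deserts was absent at each of these limits.

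Counted over all regions, the ratio of IL-4 to untreated regions fell with distance from genes. Inside protein-coding genes the 2 lists held 76.9 and 113 regions per Mb, and at up to 100 kb from a gene 73.6 and 107. In deserts, regions at 100 to 200 kb numbered 13547 untreated and 15560 IL-4, or 67.2 and 77.3 per Mb. At 200 to 500 kb there were 13615 and 12747, or 51.2 and 47.9 per Mb, at 500 kb to 1 Mb 4279 and 2706, or 29.5 and 18.7 per Mb, and beyond 1 Mb 1546 and 684, or 21.7 and 9.62 per Mb. The untreated density thus fell with distance as well, but less steeply than the IL-4 density. The ratio was 1.15 (1.12 to 1.18) in the nearest of these bands, 0.936 (0.914 to 0.959) in the next, 0.632 (0.602 to 0.664) in the third and 0.442 (0.404 to 0.484) in the farthest. Beyond 500 kb as a whole it was 0.582, and 0.380 with lists of equal length, the IL-4 list then cut to its 165089 regions of highest −log10 p. At −log10 q of at least 5 the ratio also fell over the desert bands, from 2.14 in the nearest to 1.84, 1.23 and 0.849. The interval of the last, 0.6501 to 1.108, spanned 1. Densities were taken between the first and last gene of each chromosome and include assembly gaps, which could not be removed without the genome sequence.

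**Figure D1:**
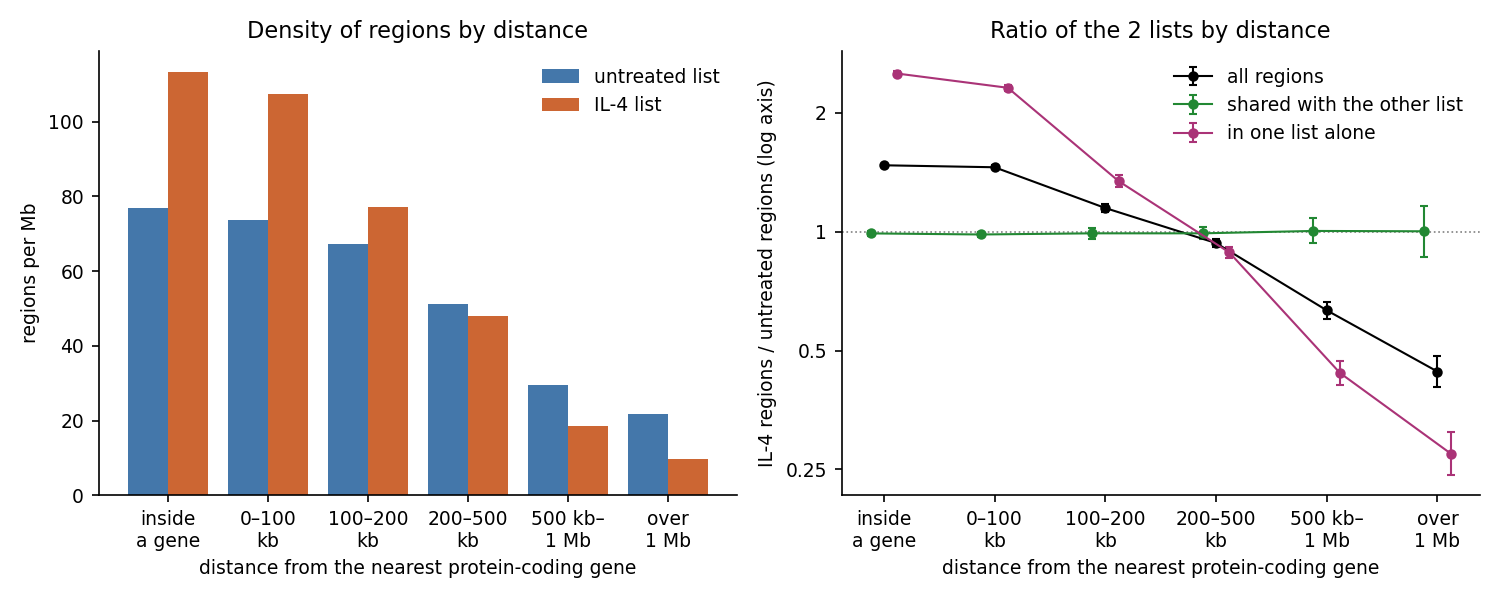
Regions per Mb in the untreated and IL-4 lists (left) and the ratio of IL-4 to untreated regions with 95% counting intervals on a log axis (right), by distance from the nearest protein-coding gene. The ratio for all regions falls from 1.47 inside genes to 0.442 beyond 1 Mb, and that for regions in 1 list alone from 2.52 to 0.274.

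Shared regions come in overlapping partners, so their ratio lies near 1 by construction, from 0.991 to 1.00 over the 4 desert bands, and any difference lies in regions alone. These had a ratio of 1.34 (1.30 to 1.39) at 100 to 200 kb, 0.886 (0.857 to 0.917) at 200 to 500 kb, 0.439 (0.410 to 0.469) at 500 kb to 1 Mb and 0.274 (0.242 to 0.310) beyond 1 Mb. Inside genes it was 2.52. The share of untreated regions that were shared fell from 55.3% at 100 to 200 kb to 23.1% beyond 1 Mb, while the shared part of the IL-4 list went from 47.7% to 52.3%.

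In all, 15805 untreated desert regions were shared (47.9%, 47.4 to 48.5) and 17182 were alone, against a share of 62.9% shared and 37.1% alone over all autosomal untreated regions. In the IL-4 list 15686 desert regions were shared (49.5%, 48.9 to 50.04) and 16011 were alone, against 45.6% shared and 54.4% alone over all autosomal IL-4 regions. The unshared part was thus larger in deserts than in the whole list for untreated regions, and smaller for IL-4 regions. Untreated regions alone in deserts stood farther from the other list, at a median of 7.17 kb from the nearest IL-4 region, with 42.2% within 5 kb. Outside deserts the median was 2.40 kb, with 69.0% within 5 kb. The IL-4 list was itself sparser in deserts, at 46.3 regions per Mb against 111 outside, and the distances were not adjusted for this. For IL-4 regions alone the medians to the nearest untreated region were 3.70 kb in deserts and 3.46 kb outside.

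Shared desert regions were wider and higher than those alone. In the untreated list the median width was 334 bp (quartiles 254 and 453) for shared regions and 253 bp (213 and 314) for those alone, and the median fold 2.23 and 2.08. In the IL-4 list the widths were 352 bp (261 and 484) and 266 bp (219 and 342), and the folds 2.25 and 2.08. Outside deserts the shared regions had a median width of 345 bp in the untreated and 413 bp in the IL-4 list. Desert regions as a whole had median widths of 282 and 301 bp, against 305 and 332 bp for other regions, so the gap between the lists was narrower in deserts. The shortest region in either list was 200 bp wide.

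The shared part rose with fold, in deserts as elsewhere. Of untreated desert regions with a fold of 3 to 4, 95.2% were shared, and all 193 at 4 to 5 and all 158 at 5 or more were. Of IL-4 desert regions 87.3% were shared at a fold of 3 to 4, 97.4% of 306 at 4 to 5 and all 236 at 5 or more. Below a fold of 2 the shared part was 34.7% in the untreated and 33.7% in the IL-4 list. Outside deserts it was higher than in deserts at a fold of 3 to 4 in the untreated list, at 98.999%, and lower in the IL-4 list, at 78.1%. At 4 to 5 it was 99.96% and 95.8% outside deserts, and at 5 or more 100% and 99.7%. Regions alone with a fold of at least 3 numbered 54 in the untreated and 179 in the IL-4 list. Outside deserts they numbered 87 and 3633, so this IL-4 excess was larger there.

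The fold classes also separated the near from the far deserts. Over all deserts the ratio was 1.05 below a fold of 2, 0.887 at 2 to 2.5, 1.01 at 2.5 to 3, 1.20 at 3 to 4, 1.59 at 4 to 5 and 1.49 at 5 or more. In the other autosomal regions it ran from 1.29 at 2 to 2.5 to 2.61 at 5 or more. In each class the desert ratio was the lower one. At 500 kb to 1 Mb from a gene the ratio lay between 0.597 and 0.647 in the 4 classes below a fold of 4, and at 4 or more the counts were too few to place it on either side of 1.

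**Figure D2:**
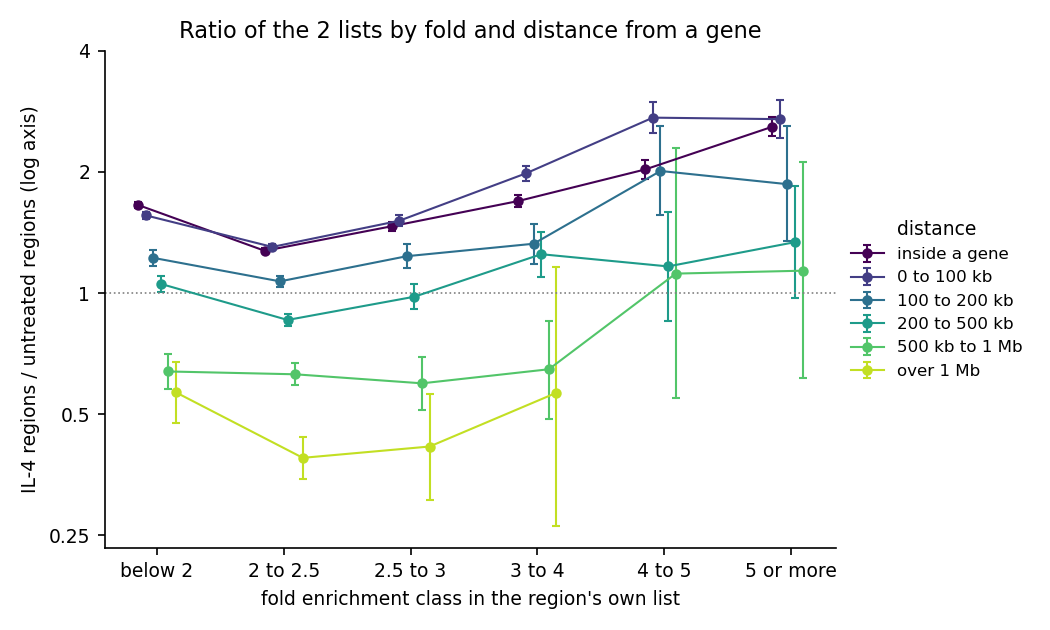
Ratio of IL-4 to untreated regions (log axis) in 6 classes of fold, 1 line for each distance from the nearest protein-coding gene, with 95% counting intervals. Classes with fewer than 20 regions over both lists are left out. Below a fold of 4 the lines are ordered by distance beyond 100 kb, with the farthest lowest.

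Where both lists had a region, its height could be compared through the pileup, the number of overlapping fragments at the summit. The constant background, the floor the caller sets for a whole library, was 13.9 fragments without and 15.9 with IL-4, 1.14 times as many, and pileups were not scaled for it. The median ratio of IL-4 to untreated pileup was 1.15 at shared desert regions (quartiles 1.03 and 1.31, n = 15805) and 1.30 at shared regions elsewhere (1.11 and 1.56, n = 88117). It was 1.18 at 100 to 200 kb, 1.14 at 200 to 500 kb, 1.10 at 500 kb to 1 Mb and 1.07 beyond 1 Mb. Among shared regions with an untreated fold of 4 to 10, a choice that uses the untreated value, the median was 1.09 in deserts (n = 319) and 1.57 elsewhere (n = 4772). The IL-4 pileup was the higher one at 62.4% of those desert regions and at 93.8% of those elsewhere. In deserts the shared regions thus differed by about as much as the constant backgrounds, and near genes by more.

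**Figure D3:**
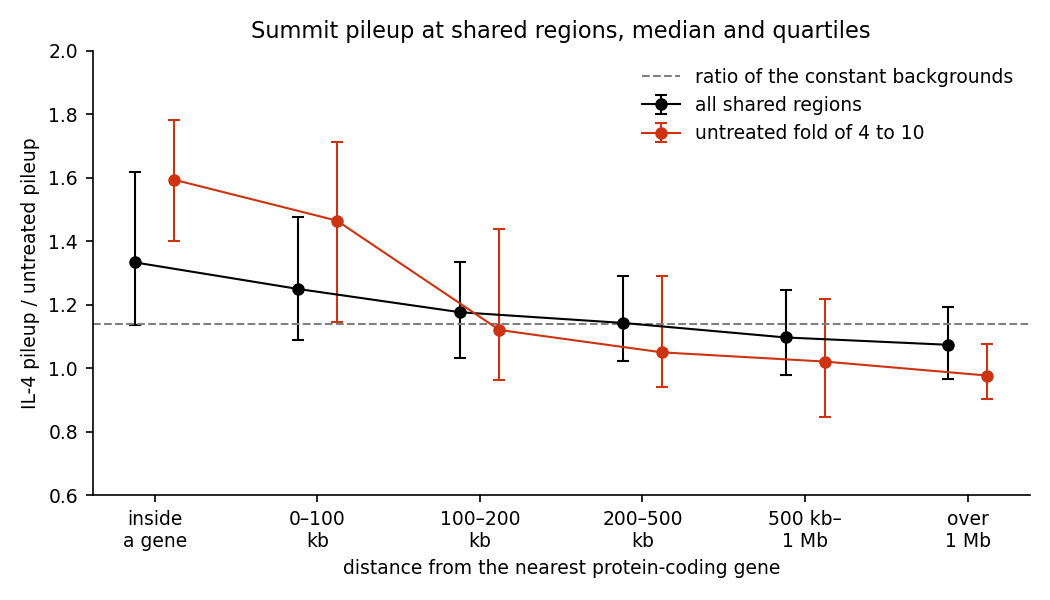
Ratio of IL-4 to untreated summit pileup at shared regions by distance from the nearest protein-coding gene, as medians (points) and quartiles (bars). The medians for all shared regions fall from 1.33 inside genes to 1.07 beyond 1 Mb, past the ratio of the constant backgrounds of 1.14 (dashed line).

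The local background differed too. The caller's background was the constant one at 80.2% of untreated and 71.4% of IL-4 desert regions, against 65.8% and 51.2% of other regions. How far depth or background set the ratios was not tested. List length was varied in 1 setting, and with lists of equal length the desert ratio was 0.659. At the edge of the rule, the 1888 untreated and 2292 IL-4 regions up to 10 kb beyond the 100 kb limit had median folds of 2.15 and 2.13. The 2073 and 2575 regions up to 10 kb short of it had the same medians.

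Every autosome showed a lower ratio in its deserts than in its other regions, 19 of 19. The desert ratio divided by the ratio elsewhere ran from 0.611 on chromosome 5 to 0.818 on chromosome 19, with a median of 0.665. Chromosome 1 held most desert regions, 3011 untreated and 2485 IL-4, and chromosome 19 fewest, 245 and 431. On 12 autosomes deserts held fewer IL-4 than untreated regions, while no autosome did so elsewhere. The interval of the desert ratio lay below 1 on 7 autosomes, with the lowest ratio of 0.801 (0.756 to 0.848) on chromosome 3. It lay above 1 on chromosomes 9, 11, 13 and 19, with the highest ratio of 1.76 (1.5004 to 2.07) on chromosome 19. Median widths of desert regions were larger in the IL-4 list on 19 of 19 autosomes.

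**Figure D4:**
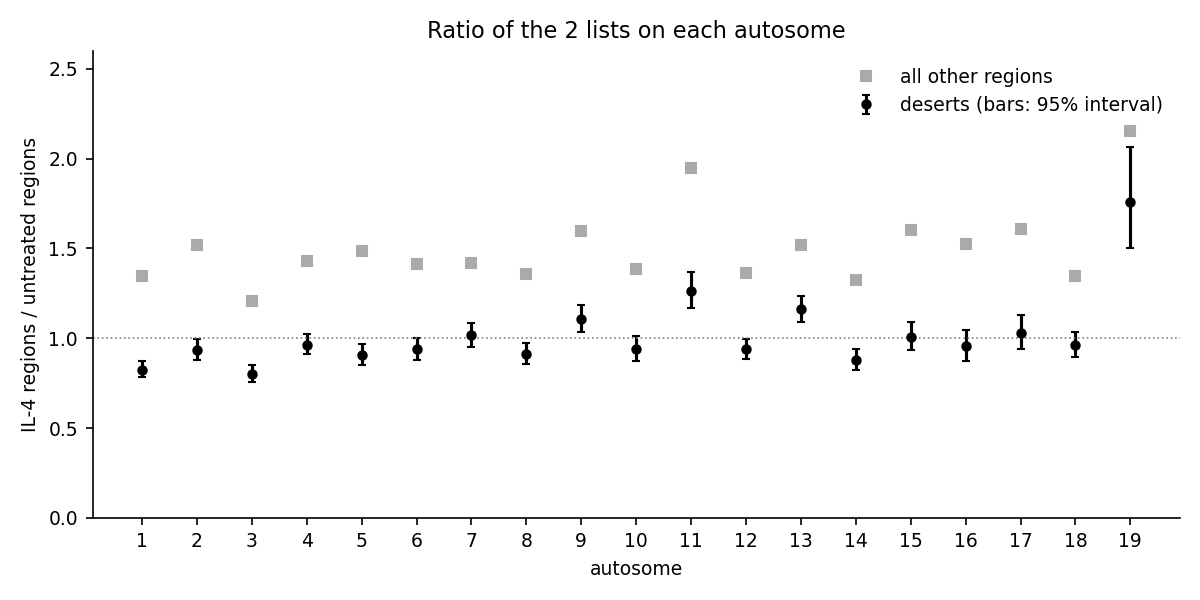
Ratio of IL-4 to untreated regions on each autosome, in deserts (black, with 95% counting intervals) and over all other regions (grey). On each of the 19 autosomes the desert point lies below the grey one.

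The regions fell into 1403 deserts, which are 1393 stretches between protein-coding genes, over 680 Mb, and 10 at chromosome ends. Of these 1268 held regions of both lists, 28 of the untreated list alone, 38 of the IL-4 list alone and 69 none. The median number per desert was 14 untreated and 13 IL-4. Counted over all regions, long deserts carried the untreated excess. The ratio was 1.32 (1.24 to 1.41) in deserts under 100 kb, 1.17 (1.14 to 1.20) at 100 to 500 kb, 1.01 (0.977 to 1.04) at 500 kb to 1 Mb, 0.770 (0.743 to 0.798) at 1 to 2 Mb and 0.589 (0.563 to 0.616) at 2 Mb or more. Of 197 deserts of at least 1 Mb, 165 held more untreated regions and 26 more IL-4 regions. At a fold of at least 3 only the longest class held fewer IL-4 regions, with 172 untreated and 143 IL-4 at 2 Mb or more. At 1 to 2 Mb there were 296 and 311, and at 500 kb to 1 Mb 351 and 434.

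Deserts beside macrophage regulators held more IL-4 than untreated regions, in a ratio close to that outside deserts. A list of 50 transcription factors, receptors and effectors of macrophages had 23 genes at the side of 28 deserts, and 23 of these deserts held more IL-4 regions, 3 more untreated regions and 2 equal numbers. Together they held 654 untreated and 947 IL-4 regions, a ratio of 1.45 (1.31 to 1.60), beside 1.47 outside deserts. At a fold of at least 3 they held 50 and 111, a ratio of 2.22 (1.58 to 3.17). At that fold the ratio was 2.01 outside deserts and 1.28 over all deserts. Over all 1393 deserts between genes the ratio was 0.961, with 633 holding more IL-4 and 571 more untreated regions. Their median length was 0.255 Mb, against 0.224 Mb for all. By distance from a gene the ratio was 1.65 (1.42 to 1.91) at 100 to 200 kb, 1.47 (1.25 to 1.75) at 200 to 500 kb and 0.937 (0.724 to 1.21) at 500 kb or more, against 1.15, 0.936 and 0.582 over all deserts. With lists of equal length the ratio beside macrophage genes was 0.995 (0.892 to 1.11), against 0.659 over all deserts.

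The desert between Id2, an inhibitor of helix-loop-helix factors, and Rnf144a held 52 untreated and 104 IL-4 regions, with a highest fold of 5.36 and 7.02. Beside Klf4, a zinc-finger factor known to act with STAT6 in alternative activation, the desert towards Actl7b held 48 and 85, of which 3 and 16 had a fold of at least 3. Beside Runx1, a factor of blood cell development, the desert towards Setd4 held 23 and 68. In that desert 19 untreated regions were shared and 4 alone, and 19 IL-4 regions were shared and 49 alone.

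Beside Nr4a3, a nuclear receptor, there were 20 untreated and 52 IL-4 regions, and beside Bcl6, a repressor of inflammatory genes, 7 and 16. The desert towards Gsdmc beside Myc, a driver of cell growth and division, held 31 and 57, and the desert beside Irf8, a lineage factor of monocytes and macrophages, 19 and 31. Not every regulator had a surplus. Beside Zeb2, a factor of tissue macrophage identity, the counts were 92 and 90, and the highest fold 3.62 and 7.23. Towards Cetn3 from Mef2c, a factor of myeloid and muscle cells, they were 73 and 47. The 0.0416 Mb desert beside Arg1, a classic IL-4 target of macrophages, held 1 region in each list.

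Deserts beside neural adhesion genes held a surplus of untreated regions. The 73 deserts at the side of 47 cadherin, protocadherin, contactin and related genes held 3405 untreated and 1755 IL-4 regions, a ratio of 0.515 (0.486 to 0.546), and 69 of the 73 held more untreated regions. Their median length was 1.17 Mb. By distance the ratio was 0.624 (0.547 to 0.710) at 100 to 200 kb, 0.563 (0.512 to 0.620) at 200 to 500 kb and 0.439 (0.402 to 0.480) at 500 kb or more. Within each band it lay below the value for all deserts. With lists of equal length it was 0.341, against 0.659 over all deserts.

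The desert from Cntnap5b to Cdh20 held 125 untreated and 38 IL-4 regions, and 28 of each were shared, so 97 and 10 were alone. That from Dsel to Cntnap5a, a contactin-associated adhesion gene, held 122 and 44, with 97 and 19 alone. Between Olfm4 and the protocadherin gene Pcdh17 there were 109 and 27, with 94 and 12 alone.

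The 61 deserts beside 47 developmental regulators held 2554 untreated and 2531 IL-4 regions, a ratio of 0.991 (0.938 to 1.05). With lists of equal length it was 0.667 (0.627 to 0.709), and at −log10 q of at least 2 it was 1.20 (1.12 to 1.28). More IL-4 regions stood in 26 of them and more untreated regions in 26. These deserts were dense, with 72.7 untreated and 72.1 IL-4 regions per Mb, against 48.2 and 46.3 over all deserts between genes. Beside Tbx3, a T-box factor of limb and heart, 131 and 155 regions were listed in the desert towards Med13l. Beside Sox2, a pluripotency and neural factor, there were 107 in each list in the desert towards Atp11b. By distance the ratio was 1.09, 0.973 and 0.613 in the same 3 bands. The 3 gene lists shared no desert.

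**Figure D5:**
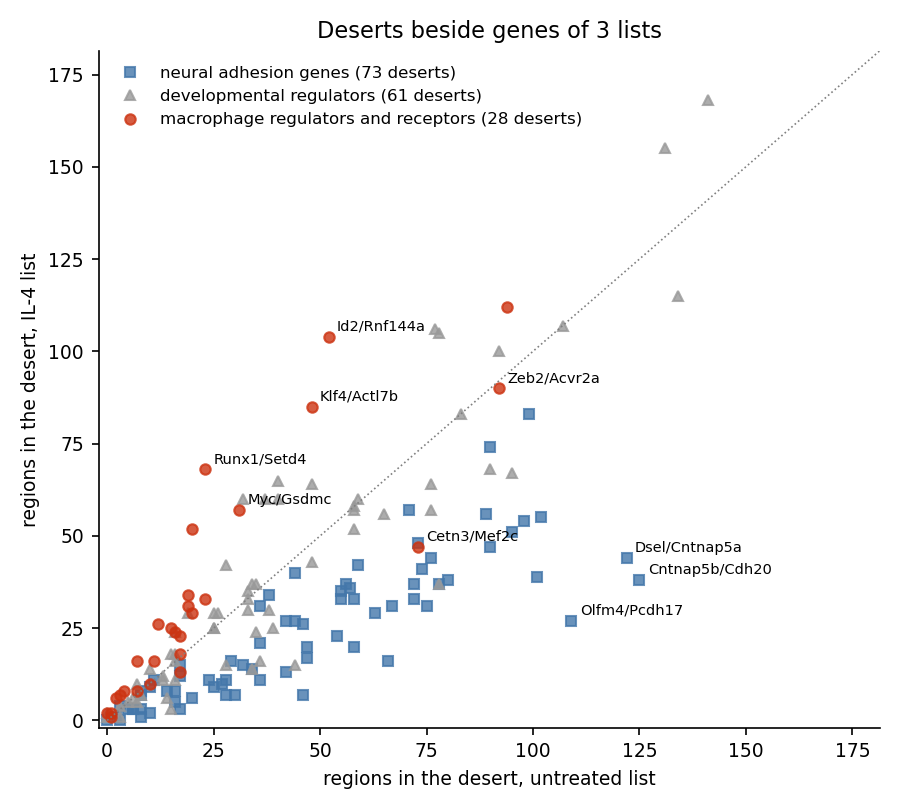
Number of regions in the untreated list (horizontal) and the IL-4 list (vertical) for each desert beside a gene of 3 lists, 1 point for each desert, with equal numbers on the dotted line. Of the macrophage deserts 23 of 28 lie above the line, and of the neural adhesion deserts 69 of 73 lie below it.

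Some surpluses were larger still. The desert with most additional IL-4 regions lay between Rps24 and Zmiz1, with 68 untreated and 160 IL-4 regions, followed by that between Rragc and Pou3f1, with 50 and 119. Between Cd83, an activation marker of antigen-presenting cells, and Jarid2 there were 16 and 83, of which 2 and 69 were alone. Between Matn1 and Ptpru there were 97 and 157. The 5 largest untreated surpluses were at the 3 adhesion deserts named above, between Pcdh20 and Pcdh9, with 101 and 39, and between Epha7 and Map3k7, with 134 and 74.

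The desert with the highest numbers lay between Sall3 and Galr1, with 239 untreated and 255 IL-4 regions over 1.21 Mb, and it was also the densest of those of at least 1 Mb. The desert from Mki67 to Mgmt held 178 and 196, and that from Cdh26 to 4930591A17Rik 161 and 180. The antigen receptor loci count as deserts here, because RefSeq does not class their gene segments as protein-coding. They held 489 untreated regions (1.48% of desert regions) and 457 IL-4 regions (1.44%). The immunoglobulin heavy chain locus Igh held 206 and 178, the kappa light chain locus Igk 158 and 111, and the T-cell receptor alpha locus Tcra 120 and 156.

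Noncoding genes lay at or near many desert regions, more so in the IL-4 list. Inside the body of a noncoding gene lay 5210 untreated regions (15.8%, 15.4 to 16.2) and 5865 IL-4 regions (18.5%, 18.1 to 18.9), mostly in lncRNA genes, with 4594 and 5338. The median distance to the nearest noncoding gene was 31.0 kb for untreated and 23.6 kb for IL-4 regions. For untreated regions alone it was 38.4 kb, with 13.5% inside such a gene, and for shared ones 24.0 kb, with 18.3% inside. For IL-4 regions alone it was 23.1 kb, with 18.7% inside. Unshared untreated regions thus stood apart from the other 3 classes. They also lay farther from protein-coding genes, at a median of 267 kb. That median was 209 kb for shared untreated, 209 kb for shared IL-4 and 198 kb for unshared IL-4 regions. How far this distance goes with the distance to noncoding genes was not tested.

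The nearest noncoding gene was an lncRNA for 54.8% of untreated and 61.9% of IL-4 desert regions, a pseudogene for 34.2% and 28.6%, a snoRNA for 5.77% and 4.90%, a snRNA for 3.57% and 3.03% and a microRNA for 0.994% and 0.946%. In lncRNA bodies the ratio of IL-4 to untreated regions was 1.16 (1.12 to 1.21), and in the rest of the deserts 0.928 (0.913 to 0.944). At 100 to 200 kb from a protein-coding gene it was 1.36 in and 1.11 outside lncRNAs, and at 200 to 500 kb 1.05 and 0.916. Beyond 1 Mb it was 0.467 (0.318 to 0.678) and 0.441 (0.401 to 0.484), which overlap.

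Several known lncRNAs held more IL-4 regions. Pvt1, the neighbour of Myc, held 10 untreated and 20 IL-4 desert regions, with highest folds of 4.22 and 5.79. Morrbid, known to hold down the pro-death gene Bcl2l11 136 kb away, held 12 and 25, with 4.49 and 5.75. Lncpint, an lncRNA induced by p53, held 4 and 14, with 3.69 and 6.17. Shared with the other list were 9 at Pvt1, 10 at Morrbid and 4 at Lncpint, which the overlap rule pairs between the lists.

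Mir100hg held 11 untreated and 15 IL-4 regions and Mir99ahg, another microRNA host gene, 10 and 11. Snhg14, the long imprinted snoRNA host gene whose transcript runs antisense to Ube3a, held most of any noncoding gene over its 1177 kb, with 78 and 56, and 44 of each were shared. Rmst, an lncRNA of neural differentiation, held 2 and 0. Lncenc1 held 3 and 7, Mirg 2 and 4 and Tunar 3 and 4. Sox2ot and Crnde held none and were only the nearest noncoding gene to regions. Of 49 known names 46 were matched, and 12 held or were nearest to a desert region.

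Among the other noncoding genes with most regions, A930011G23Rik held 36 untreated and 54 IL-4 regions, 5730522E02Rik 19 and 34, Gm19859 38 and 46, and D5Ertd615e 24 and 33. D130009I18Rik held 33 and 27 and Gm27243 24 and 11. These genes are 166 to 594 kb long.

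MicroRNAs were few. Of 919 autosomal hairpins known to RefSeq, 100 lay in deserts, and 21 of them had an untreated region within 1 kb and 25 an IL-4 region, with 16 in both. Of the 30 with a region of either list, 18 lay in 1 cluster on chromosome 12. There 1 region can count for several hairpins, as an IL-4 region alone did for Mir1197, Mir323, Mir758 and Mir329. The share among hairpins nearer to genes was not counted. Hairpins overlapped directly by both lists were Mir466k, Mir8117 and Mir453. Mir410 was overlapped by an IL-4 region alone. Mir487b was also overlapped in the IL-4 list only, by a shared region, and Mir7094-2 in the untreated list only, by a region alone. The mature sequences are shown for Mir466k, Mir8117, Mir453 and Mir410, for Mir410 the 5p arm only. The seed (bases 2 to 8) is in capitals (RefSeq, GRCm38.p6).
miR-466k: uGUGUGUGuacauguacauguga
miR-8117: gCUCGUGUggaacagaagggg
miR-453: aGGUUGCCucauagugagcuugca
miR-496a-5p: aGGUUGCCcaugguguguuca
miR-410-5p: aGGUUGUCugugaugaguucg
miR-494-5p: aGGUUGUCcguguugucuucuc

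The 5p arms of Mir496a and Mir494 are printed beside them because they share the seeds GGUUGCC with miR-453 and GGUUGUC with miR-410-5p. The 3p arms of Mir410, Mir496a and Mir494 are not printed and have seeds unlike these. Mir453, Mir496a, Mir410 and Mir494 come from the imprinted cluster at Mirg on chromosome 12, where 37 desert hairpins lie over 38.9 kb. That cluster held 5 untreated regions, all shared, and 8 IL-4 regions, of which 5 were shared, with highest folds of 2.15 and 2.25. At Mir8117 the folds were 2.41 and 2.61, at Mir466k 2.16 and 2.36, and at Mir453 1.85 and 1.82. The highest fold within 1 kb of any desert hairpin was 328 bp from Mir6372 in the untreated list, at 2.95, and 340 bp from it in the IL-4 list, at 4.39.

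Both lists had the same desert regions at the top by fold. The highest, at chr19:61331189-61331657, had folds of 41.5 untreated and 41.1 IL-4 and lay 103 kb from Csf2ra, the receptor subunit for GM-CSF, in the stretch at the end of the chromosome. The next was at chr12:3109757-3110204, 137 kb from Rab10, with 41.3 and 40.9. Then came chr1:195371549-195372053, 195 kb from Cr2, with 37.5 and 37.0, chr2:57629361-57629855, 259 kb from Gpd2, with 31.1 in both, and chr12:97061302-97061918, 1140.4 kb from Galc, with 28.0 and 28.4. The background beside these 5 was 2.81 to 8.96 times the constant one in the untreated library.

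Of 181 untreated regions with a fold of at least 10, 32 lay in deserts (17.7%, 12.4 to 24.0), and of 330 IL-4 regions 34 (10.3%, 7.24 to 14.1). At a fold of 5 to 10 the desert share was 5.59% and 3.45%. A background above 2 times the constant one was present at 10 of the 32 and 11 of the 34, but at 0.495% and 0.443% of desert regions with a fold below 3. The widest region, chr17:39843048-39847276, was 4229 bp wide over the ribosomal RNA pseudogene Rn18s-rs5, with a fold of 2.57 over a background 44.0 times the constant one. What the raised background had to do with these regions was not tested.

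Of the 5 IL-4 regions alone of highest fold, 3 lay in lncRNAs. Over all desert regions alone, 17.5% of the IL-4 and 11.8% of the untreated ones did, and no difference from these shares was tested. The highest was at chr10:16996806-16997201 in Gm20125, with a fold of 4.92, 726 kb from Cited2, a co-regulator of transcription known to dampen inflammatory genes in macrophages. The next were at chr10:66814310-66815101 in Gm40678, with 4.36, and the Mir100hg region shown above, with 4.27. Then came chr7:74683847-74684233, 129 kb from Slco3a1, with 4.21, and chr2:148567909-148568244, 104 kb from Nxt1, with 4.09. The untreated regions alone of highest fold were lower, from 3.62 at chr11:40348308-40348940, 330.4 kb from Mat2b, to 3.89 at chr17:64994610-64994987, 159 kb from 4930583I09Rik. The one at chr5:70393116-70393457, 358 kb from the GABA receptor gene Gabrg1, had a fold of 3.82. None of these last 3 lay in a noncoding gene.

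As a check of the cells, 17 of 19 alveolar macrophage marker genes had an untreated region within 1 kb of a gene end and 18 an IL-4 region, against 60.1% and 73.3% of all protein-coding genes. Of 6 lung epithelial markers 3 and 5 did, of 6 lymphocyte markers 2 and 5, and of 5 granulocyte markers 2 and 3. Regions at a gene end do not measure expression, and the part of other cells in the desert regions was not tested.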

How the data were processed

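The data were 2 CUT&Tag libraries, each with 1 deposited list of its own regions. Per the submitters' processing notes, which state no roles, the tools were DiffBind, MACS2 2.2.7.1 and Bowtie 0.12.8, on mm10; caller settings and any control library are not given in the sources used here. In the deposited lists the fold is the authors' ratio of summit pileup to the background of the same library. The −log10 p and −log10 q in the deposited lists rank regions against that background, the deposited score was not used, and the deposited summit offset gives the summit. Depth in reads is unknown. The fold and p together gave back pileups that were whole within 0.05 for 100% of regions, and the constant background, 13.9 and 15.9 fragments.

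Regions on the 19 autosomes were measured against 20665 protein-coding genes and 25679 noncoding genes of RefSeq (GRCm38.p6). Antigen receptor segments count as neither. A desert is the stretch between protein-coding genes, less 100 kb at each side. With 1 library in each group nothing was tested: shares carry exact Clopper-Pearson 95% intervals, ratios the interval of the binomial share of both counts, and medians their quartiles, all for counting error only. Exon, intron and UTR positions, and sequences of regions away from promoters, were not analysed here. The members and lists were chosen with earlier results of these data known.

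Named regions were the 5 of highest fold and the 3 widest of each class. Named deserts were the 5 with most regions, the 5 densest of at least 1 Mb and the 5 largest surpluses for each list. Noncoding genes were the 10 with most regions, microRNAs within 1 kb and a list of 49 known lncRNAs; not all are printed. Other names, including the promoters and the examples from gene lists, were chosen after their values were seen. Alternatives changed the distance limit, the −log10 q and fold limits, list length, gene set and overlap rule. Interval and overlap code was tested on simulated data. Python 3.11.15 with numpy 2.4.6, pandas 2.3.3, scipy 1.17.1 and matplotlib 3.10.9 was used.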

Additional observations from a re-analysis of the deposited data

Results flagged for a closer look

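Regions more than 100 kb from a protein-coding gene were also listed on the sex chromosomes, which none of the comparisons above used. On X there were 155 untreated and 109 IL-4 regions, and on Y 22 and 19. No control library was analysed here to set beside them.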

How the results depend on the processing

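No paired analysis was possible because each group held 1 library, and leaving out a library was not possible for the same reason. With 15 settings 156 alternative values were computed, and 52 stayed within the counting interval of the value reported. The settings without antigen receptor loci and without regions of raised background, and the far-desert and gene-list ratios, were added after seeing the data. On 19 of 19 autosomes the ratio was lower in deserts than elsewhere at −log10 q of at least 2, at a fold of at least 3 and with lists of equal length. The limit of −log10 q of at least 5, given with the distance bands above, was not among the 15 settings.

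The ratio of IL-4 to untreated desert regions turned above 1 in 3 settings, at 1.05 with a limit of 50 kb, 1.20 at −log10 q of at least 2 and 1.28 at a fold of at least 3. It was 0.830 at 200 kb, 0.582 at 500 kb, 0.659 with lists of equal length and 0.926 with regions under 1 kb apart merged. Beyond 500 kb the ratio, 0.582 as reported, was 0.738 at that q, 0.760 at that fold and 0.380 with equal lists. Beside macrophage genes the ratio was 1.73, 2.22 and 0.995 in these settings, and the interval of the last, 0.892 to 1.11, spanned 1. Beside developmental genes it was 1.20, 1.11 and 0.667, and beside neural adhesion genes 0.652, 0.718 and 0.341.

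Untreated and IL-4 values follow in that order. The share of the list in deserts was 28.4% and 21.9% at 50 kb, 11.8% and 7.16% at 200 kb, 3.53% and 1.504% at 500 kb, 19.2% and 13.8% at that q, and 9.83% and 6.50% at that fold. It was 22.4% and 15.9% with named genes only, 19.7% and 13.9% without receptor loci, 13.2% for IL-4 with equal lists and 19.8% for untreated without chromosome 1. The shared part was 51.5% and 48.6% at 50 kb, 42.8% and 51.2% at 200 kb, 31.3% and 54.0% at 500 kb, 50.3% and 41.8% at that q, 61.0% and 47.6% at that fold, 37.9% and 56.6% with equal lists, and 49.0% and 50.2% with named genes. It was 44.9% and 46.4% with overlap of 50% of the shorter region, 43.1% and 44.9% with summits within 250 bp, and 55.8% and 59.3% with gaps up to 1 kb.

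The width of shared minus alone regions stayed above 0 bp in all settings run: 98 and 96 at that q, 76 and 122 at that fold, 85 and 98 with equal lists, 85 and 90 with the stricter overlap, 87 and 62 at 500 kb, and for IL-4 90 at 50 kb and 78 at 200 kb. The fold difference also stayed above 0, with 0.201 for untreated at 500 kb, with equal lists and with the stricter overlap, 0.237 for IL-4 at that q, and 0.550 and 0.711 at that fold. The median number per desert was 9 and 11 at that q, 0 and 1 at that fold and 9 for IL-4 with equal lists.

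The share inside a noncoding gene was 17.4% and 20.0% at 50 kb, 14.2% and 16.2% at 200 kb, 9.51% and 10.1% at 500 kb, 18.5% and 24.0% at that fold, 16.4% and 19.03% with named genes, 14.1% and 17.0% without pseudogenes, and 18.9% for IL-4 with equal lists. The distance to one was 25.3 and 19.6 kb, 38.4 and 30.6 kb and 67.1 and 60.1 kb at the 3 distance limits, 22.8 and 17.2 kb at that fold, 28.8 and 22.2 kb with named genes, 54.7 and 38.3 kb without pseudogenes, and 23.0 kb for IL-4 with equal lists. The distance limits and filters change which regions are counted; the cause of the other changes was not tested.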
